A study of Mus musculus with 16 samples.

Results

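The genes described here are those of the nuclear genome that encode the machinery of oxidative phosphorylation. They were taken from the table by name: every gene whose symbol begins with Nduf, Uqcr, Atp5 or Cox4 to Cox8, or is Sdha, Sdhb, Sdhc or Sdhd, was kept if it reached 1 TPM in at least 3 libraries, and names of pseudogenes were left out. TPM is a read count scaled by gene length and by the library total, so levels of different genes can be set side by side. The name matched 92 rows, and 91 of them passed the filter, out of 24188 genes that passed it in all and 49315 genes in the table. The gene below it was Cox8c, a complex IV isoform, which reached 0.659 TPM at most. All 91 are annotated as protein coding. By role they comprise 36 subunits of complex I, 8 assembly factors of complex I, 4 subunits of complex II, 8 of complex III, 11 of complex IV, 8 alternative isoforms or related proteins of complex IV, 15 subunits of complex V, and Atp5s, a factor named after complex V.

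The inner mitochondrial membrane holds a chain of protein complexes that pass electrons from NADH and succinate to oxygen, and most of them pump protons meanwhile. Complex I takes electrons from NADH, complex II from succinate, complex III passes them to cytochrome c, complex IV hands them to oxygen, and complex V lets the protons flow back and makes ATP. Complex IV is unusual in that several of its nuclear subunits exist as paired isoforms, 1 made in most tissues and 1 made in muscle, in testis or where oxygen is low. Intervertebral discs have few or no blood vessels in their inner part, and their cells live at low oxygen and rely largely on glycolysis.

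The libraries came from tail intervertebral discs of 16 mice, with 4 discs pooled per mouse and RNA depleted of ribosomal RNA before sequencing. The wild-type mice comprised 3 with intact and 4 with injured discs, and the mice carrying the Adam8EQ allele, called mutants here, comprised 4 with intact and 5 with injured discs. The series title names DBA, an inbred strain, beside the mutant, while the strain of each mouse, its age, the way of injury and the time since injury are not given in the sources used here. Adam8 encodes a membrane-bound metalloprotease, and nothing more on the allele is given. Replicates were separate mice.

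The libraries held an estimated 10198259 to 24826960 reads, with a median of 13297054. Adam8 itself lay between 0.956 and 2.97 TPM in the 7 intact libraries, between 3.52 and 66.3 TPM in injured wild-type discs and between 16.2 and 264.1 TPM in injured mutant discs, and its level does not check the label, since the kind of change in the allele is not given. Summed markers of notochordal cells, which fill the core of the disc, lay at 15390 to 15820 TPM in intact wild-type, 7025 to 14900 TPM in intact mutant, 3047 to 11130 TPM in injured wild-type and 582 to 7023 TPM in injured mutant discs. Summed macrophage markers lay at 178.7 to 212.9, 162.2 to 276.8, 280.7 to 4116 and 911 to 8383 TPM in the same order. Of these markers, 9 of 10 were called higher after injury in mutants (90%, against 13.1% of all tested genes). All values are from whole tissue, in which fewer cells of a type and less RNA per cell cannot be told apart, and the part of these markers in the results was not tested. Injured wild-type mice 1 and 2 had macrophage sums of 280.7 and 436.6 TPM and stood apart from mice 3 and 4, at 4116 and 2672 TPM. The names of the mutant libraries begin with A8 (injured mice 1 and 2, intact mice 1 and 2) or with M (injured mice 3, 4 and 5, intact mice 3 and 4), and those of all wild-type libraries with D. What these letters stand for is not given in the sources used here, and for the 2 kinds of mutant library the values are given separately where they bear on a result.

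Short sequences upstream of these genes are shown first, because genes of oxidative phosphorylation are known for binding sites of a few shared factors close to their start, among them NRF1, the ETS factor GABP and YY1. The table of promoter sequences from RefSeq (GRCm38.p6) matched 74 of the 91 genes. In the 150 bases before the start, the letters TGCGCA, the core of the NRF1 site, stood in 12 of the 74 (16.22%), against 5.66% of 27025 genes. The letters CCGGAAG, the core of the GABP site, stood on either strand in 12 of the 74 (16.22%), against 6.33% of all genes, and AAGATGG, the core of the YY1 site, in 1 (1.35%) against 2.98%. Bases after the start were not searched, so a low count, as for YY1, does not speak for sites there. The motif letters do not overlap each other in the sequences printed. At least 1 of the motifs stood in 29.73% of the 74, against 13.83% of the 27025 genes. Those were not matched to the 74 in expression or base content, so the excess is not shown to be particular to this family. Of the genes called higher after injury in mutants, 5 of 14 with an entry held at least 1 of the motifs, of those called lower 2 of 3, and of those not called 15 of 57. The 6 stretches that follow show both directions: Sdhd, Ndufb6, Atp5e and Cox5a rose after injury in mutants, and Ndufa6 and Atp5g2 fell. They run 5′ to 3′ along the gene and end at the base before its start, and capitals mark a motif (TGCGCA, or CCGGAAG read on the opposite strand as CTTCCGG).
Sdhd (chr9:50603850-50603999, minus strand): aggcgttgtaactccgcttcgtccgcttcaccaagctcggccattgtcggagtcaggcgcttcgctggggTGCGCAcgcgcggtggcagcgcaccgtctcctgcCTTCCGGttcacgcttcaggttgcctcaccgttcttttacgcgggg
Ndufb6 (chr4:40279422-40279571, minus strand): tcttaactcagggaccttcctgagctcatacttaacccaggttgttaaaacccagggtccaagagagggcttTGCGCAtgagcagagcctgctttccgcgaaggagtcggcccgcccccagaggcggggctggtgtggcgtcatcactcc
Atp5e (chr2:174464102-174464251, minus strand): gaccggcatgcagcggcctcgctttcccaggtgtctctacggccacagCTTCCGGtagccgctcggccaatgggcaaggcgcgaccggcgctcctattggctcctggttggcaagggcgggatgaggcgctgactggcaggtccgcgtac
Ndufa6 (chr15:82354292-82354441, minus strand): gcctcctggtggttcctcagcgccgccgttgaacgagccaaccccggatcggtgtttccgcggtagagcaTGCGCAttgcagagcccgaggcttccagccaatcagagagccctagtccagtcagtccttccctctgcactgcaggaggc
Atp5g2 (chr15:102671048-102671197, minus strand): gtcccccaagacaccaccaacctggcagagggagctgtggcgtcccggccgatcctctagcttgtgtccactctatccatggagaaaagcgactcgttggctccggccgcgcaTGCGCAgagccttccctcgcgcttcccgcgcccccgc
Cox5a (chr9:57521082-57521231, plus strand): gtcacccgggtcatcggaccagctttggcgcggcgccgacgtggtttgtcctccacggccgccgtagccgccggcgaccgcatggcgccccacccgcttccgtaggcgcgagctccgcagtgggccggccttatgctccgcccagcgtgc
Sdhd held a core of each kind, 80 and 46 bases before its start. NRF1 cores also stood in Ndufb6 and in both genes that fell, Ndufa6 and Atp5g2, and Cox5a, which was among the genes with the largest rise, held none of the 3 motifs in this stretch. The same letters therefore stood before genes that moved in opposite directions. No entry was found for Ndufa4l2, Cox4i2, Cox4i1 or Cox6a2.

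In intact discs, the highest of the 91 genes were the isoforms known from low oxygen. Ndufa4l2, a relative of the complex IV subunit Ndufa4 that is known as a target of the hypoxia-inducible factor HIF-1, averaged 2500 ± 255 TPM in intact wild-type discs (SD, n = 3). Cox4i2, the isoform of Cox4 that is made at low oxygen, averaged 676 ± 59.7 TPM there. Next were Cox8a at 331 ± 20.2, Cox6b1 at 196 ± 30.5 and Atp5a1, the alpha subunit of ATP synthase, at 185 ± 15.2 TPM, and Cox6b1 and Atp5a1 did not differ beyond their spread. Together Ndufa4l2 and Cox4i2 made up 38.1% to 43.4% of the summed TPM of the 91 genes in the 7 intact libraries. At the other end were Cox6b2 and Cox7b2, isoforms known from testis, with 0.816 ± 0.280 and 0.834 ± 0.286 TPM, which did not differ beyond their spread. The median over the 91 genes of the group mean was nearly the same in the 4 groups, between 42.7 and 43.1 TPM, and 75 genes stayed at 10 TPM or above in every library.

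After injury in mutants, 17 of the 91 genes rose (18.7%) and 6 fell (6.6%) at a limma adjusted p under 0.05, where 13.1% of all tested genes were called higher and 17.7% lower. The other 68 were not called, and 58 of these changed by less than 0.3 on the log2 scale. A change is the difference between 2 group means of log2(TPM + 1), on which low genes change less than in TPM. The median change of the 91 genes was 0.06, against -0.08 for all tested genes. In 14 of the 91 (15.4%) every injured mutant library lay above every intact one, against 12% of all tested genes, and in 5 (5.49%) below, against 15.3%. With each library scaled by the median of ratios, 21 genes were called higher and 4 lower, where 16.2% and 14.9% of all tested genes were. With centring by gene length and GC content the counts were 24 and 4, where 16.3% and 16% of all tested genes were, so that the share of rises among the calls moved upward for the 91 genes and for all genes. In 13 of the 23 called genes the change was under 0.5 in size, and only 5 changed by more than 1: Cox7a1, Ndufa4 and Cox5a upward, Cox4i2 and Ndufa4l2 downward. All 5 belong to complex IV or are relatives of its subunits.

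**Figure D1:**
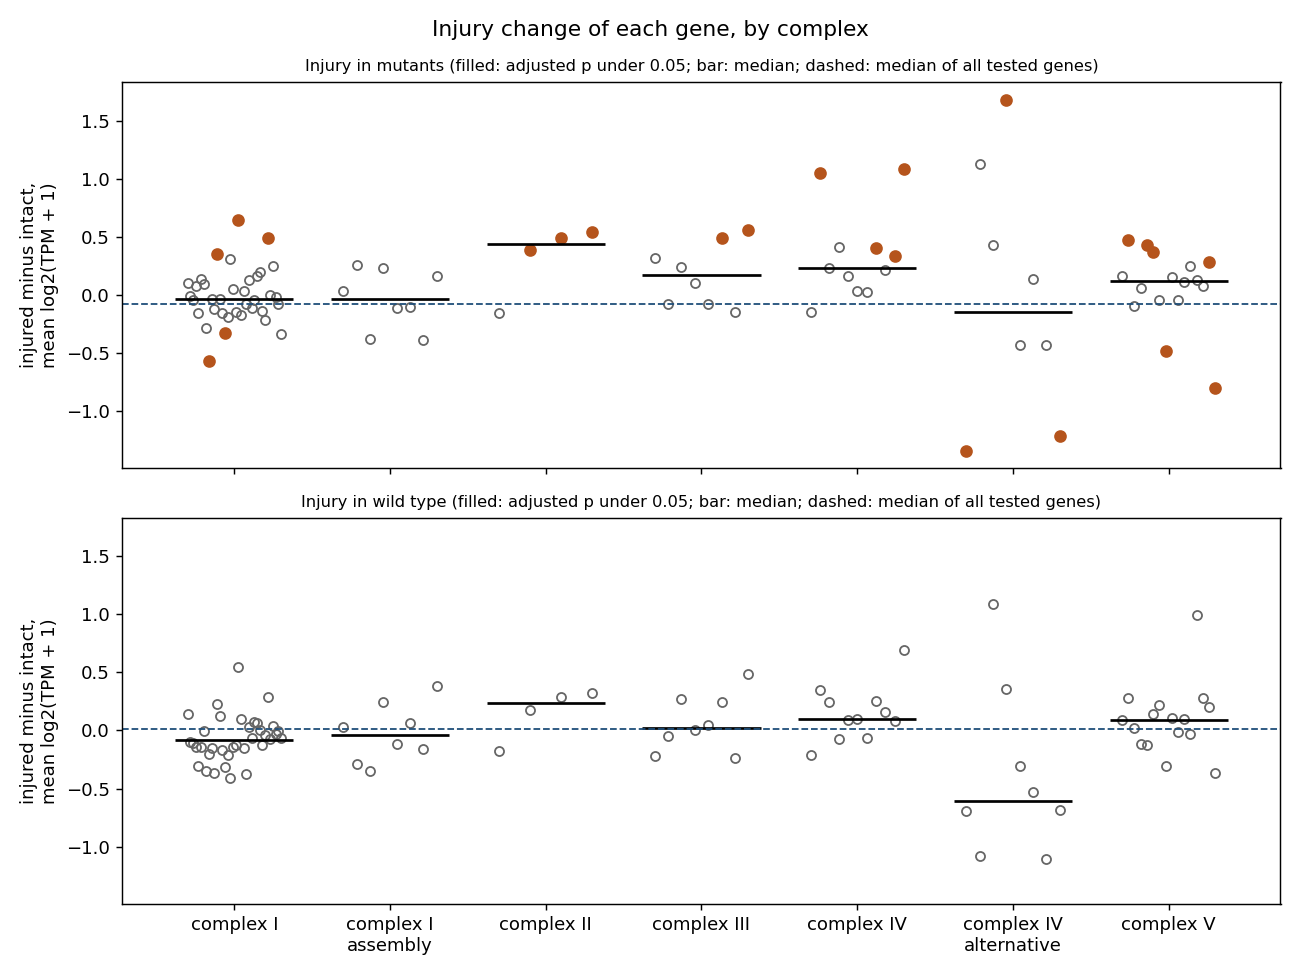
Change after injury for each of the 91 genes, as injured minus intact mean log2(TPM + 1), by complex, in mutants (upper) and wild type (lower). Filled points passed a limma adjusted p of 0.05, bars are medians of a complex and the dashed line is the median of all tested genes. In mutants the medians of complexes II, III and IV lie above 0 and that of complex I near 0, while no gene passed in the wild type.

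The 2 genes that dominated intact discs were the ones that fell furthest. Ndufa4l2 (ENSMUSG00000040280, GRCm38 chromosome 10, 127514967 to 127517154, plus strand) stood at 2528, 2393, 2465 and 2585 TPM in intact mutant mice 1 to 4. In injured mutant mice 1 to 5 it stood at 602.0, 777.7, 1289, 1735 and 1379 TPM, so that every injured library lay below every intact one. The fall was 1.21 on the log2 scale (-1.21 ± 0.353 SE, limma adjusted p 0.01494). The wild-type values were 2260, 2768 and 2473 TPM in intact and 2291, 2141, 736.1 and 1606 TPM in injured mice. Injured wild-type mice 1 and 2 were near the intact level and mice 3 and 4 below it, and the change was -0.68 ± 0.402 (SE, limma adjusted p 0.3651). Exons of Ndufa4l2 overlap those of Shmt2 on the opposite strand, whose level was 79.4 to 129.3 TPM over all libraries, and the use of strand in counting is not given in the sources used here.

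Cox4i2 (ENSMUSG00000009876, chromosome 2, 152754173 to 152765037, plus strand) moved in the same direction. Its level was 499.5, 646.1, 730.2 and 714.8 TPM in intact mutants and 173.5, 167.6, 242.0, 438.4 and 334.5 TPM in injured mutants, with no overlap, a change of -1.34 ± 0.343 (SE, limma adjusted p 0.00656). Its wild-type levels were 649.7, 634.5 and 744.7 TPM in intact discs and 573.6, 514.5, 201.5 and 512.0 TPM in injured discs. All 4 injured wild-type values lay below the 3 intact ones, mouse 3 far below, and the change was -0.69 ± 0.391 (SE, limma adjusted p 0.3337). Among the mutant libraries named A8 the changes were -1.84 for Ndufa4l2 and -1.73 for Cox4i2 (limma adjusted p 0.03324 and 0.02908), and among those named M they were -0.79 and -1.13 (limma adjusted p 0.2597 and 0.1245).

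Of their widely made counterparts, Ndufa4 rose and Cox4i1 was not called. Ndufa4 (ENSMUSG00000029632, chromosome 6, 11900292 to 11907497, minus strand), a subunit of complex IV that was first assigned to complex I, stood at 18.5, 23.5, 40.7 and 28.0 TPM in intact and 51.6, 48.1, 79.1, 53.0 and 59.2 TPM in injured mutants. It rose by 1.08 ± 0.224 (SE, limma adjusted p 0.002305) without overlap of the groups. Wild-type discs had it at 24.3, 25.9 and 22.2 TPM in intact and 31.8, 33.5, 54.5 and 41.7 TPM in injured discs, again without overlap, with a change of 0.69 ± 0.255 that did not pass (SE, limma adjusted p 0.1917). Cox4i1, the common isoform of Cox4, lay between 67.0 and 91.9 TPM in intact and between 56.3 and 88.7 TPM in injured mutants, a change of -0.15 ± 0.128 (SE, limma adjusted p 0.3966).

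The ratio of Ndufa4l2 to Ndufa4 was 60.6 to 137.0 in intact mutants and 11.7 to 32.7 in injured mutants. In intact wild-type discs it was 92.9 to 111.0, and in injured wild-type mice 1 to 4 it was 72.2, 63.9, 13.5 and 38.5. All injured libraries of a genotype thus lay below its intact ones. Cox4i2 exceeded Cox4i1 6.38-fold to 9.65-fold in intact and 2.26-fold to 4.94-fold in injured mutants. As a mean difference of log2(TPM + 1), Ndufa4l2 minus Ndufa4 went from 6.50 ± 0.469 (SD, n = 4) in intact to 4.21 ± 0.570 (SD, n = 5) in injured mutants and from 6.63 ± 0.136 (n = 3) to 5.26 ± 1.09 (n = 4) in the wild type. Both low-oxygen forms remained above their counterparts in all 16 libraries.

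**Figure D2:**
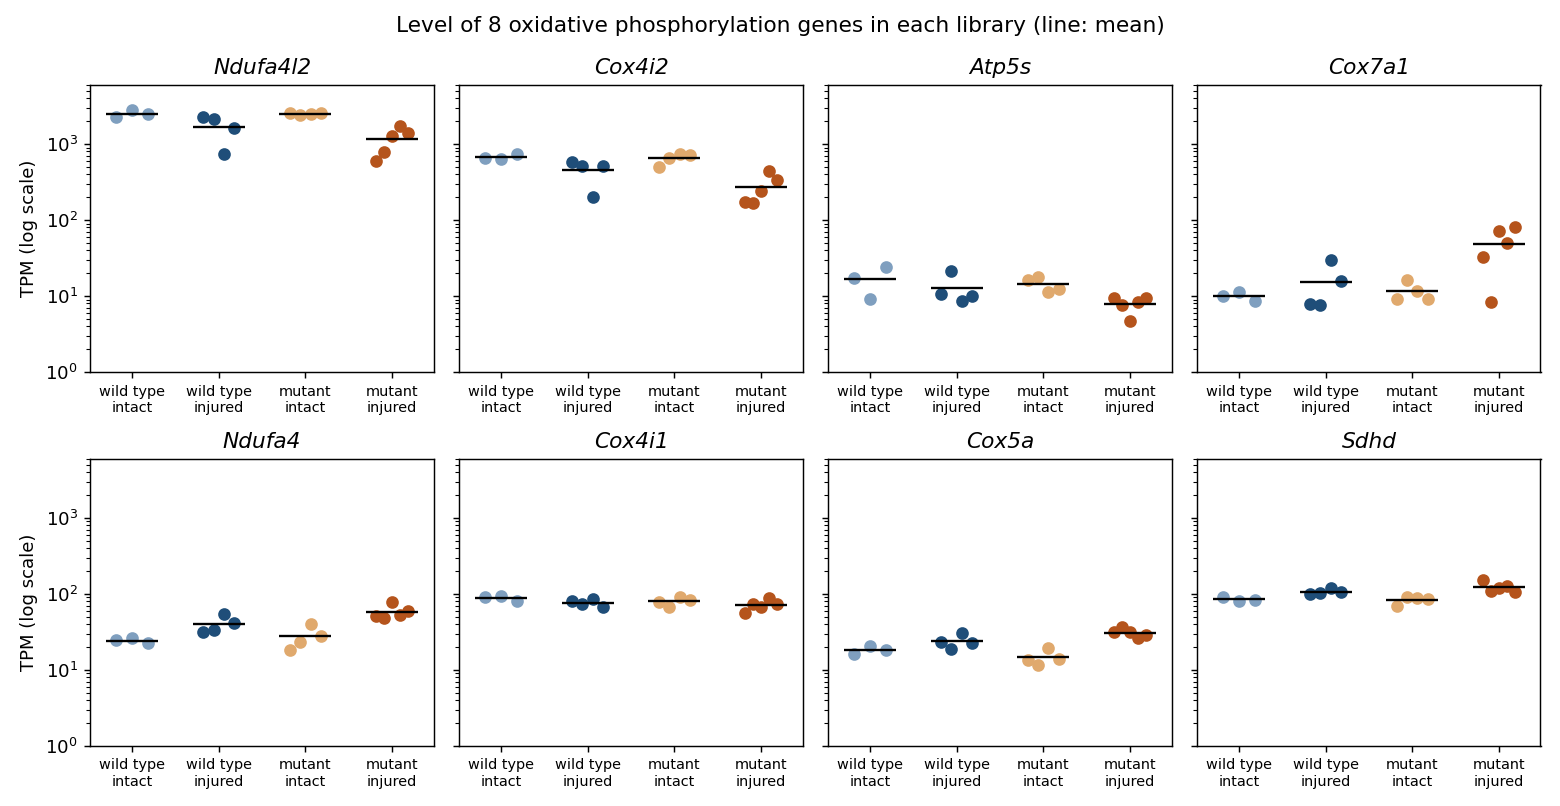
Level of 8 genes in each library in TPM on a log axis, with a line at the group mean. Ndufa4l2 and Cox4i2 are lower and Ndufa4, Cox5a and Sdhd higher in all 5 injured mutant libraries than in the 4 intact ones, Cox4i1 overlaps, and Cox7a1 is at its intact level in injured mutant mouse 2.

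The summed level of the 91 genes was lower in most injured mutants, and without these 2 genes it was not. The 2 were picked as the highest genes and the largest falls, which by itself favours that outcome. The sum was 7050 to 7880 TPM in intact and 5330 to 7490 TPM in injured mutants, and without Ndufa4l2 and Cox4i2 it was 4020 to 4690 and 4550 to 5310 TPM. Their share of the sum was 40.5% to 42.9% in intact mutants and 14.6%, 17.0%, 24.4%, 29.0% and 26.0% in injured mutant mice 1 to 5. In injured wild-type mice 1 to 4 the share was 38.3%, 38.3%, 16% and 31.6%. Among injured wild-type mice, 3 and 4 had the higher macrophage sums and the lower shares. In injured mutant mice 1 to 5 the macrophage sums were 2229, 8382, 1435, 2842 and 910.9 TPM, and mouse 4, second highest in these markers, had the highest share. Their notochordal sums were 581.5, 3952, 1154, 7023 and 3988 TPM, highest in mouse 4 and lowest in mouse 1, as was the share. Mouse 3 had a higher share than mouse 2 with a lower notochordal sum. In injured wild-type mice 1 to 4 the notochordal sums were 11130, 9212, 3047 and 4429 TPM. The part of either cell type in the shares was not tested.

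Among the 11 common subunits of complex IV, 4 rose (36.4%, against 13.1% of all tested genes) and none fell (against 17.7%) in mutants. Their median change was 0.23, and 10 of 11 changes were above 0. Cox5a (ENSMUSG00000000088, chromosome 9, 57521274 to 57532426, plus strand), a structural subunit facing the matrix, had the smallest adjusted p of all 91. It was at 13.3, 11.7, 19.6 and 13.7 TPM in intact and 31.1, 37.1, 31.5, 25.9 and 28.8 TPM in injured mutants, a rise of 1.05 ± 0.158 (SE, limma adjusted p 0.0006955) with no overlap. Wild-type Cox5a was at 16.2, 20.5 and 18.1 TPM in intact and 23.2, 19.0, 30.1 and 22.5 TPM in injured discs, with overlap through mouse 2 (0.35 ± 0.18 SE, limma adjusted p 0.3271). Cox7b rose by 0.41 and Cox8a by 0.33 (limma adjusted p 0.00332 and 0.01748), with no overlap of the mutant groups. The call of Cox8a was lost without intact mutant mouse 2 (limma adjusted p 0.06652). Cox6a1, whose change of 0.42 missed the threshold (limma adjusted p 0.05381), Cox5b, Cox6b1, Cox6c, Cox7a2 and Cox7c were not called. The low antisense gene Gm26631, at 3.01 to 6.51 TPM, overlaps exons of Cox5a.

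The 8 alternative isoforms and related proteins of complex IV spread most widely, from -1.34 to 1.68. They held 1 rise (12.5%, against 13.1% of all tested genes) and 2 falls (25%, against 17.7%). Cox7a1 (ENSMUSG00000074218, chromosome 7, 30184144 to 30186078, plus strand), the form known from heart and skeletal muscle, had the largest change of the 91. It was at 9.07, 16.5, 11.6 and 9.27 TPM in intact and 32.9, 8.25, 71.0, 50.1 and 80.3 TPM in injured mutants, a rise of 1.68 ± 0.586 (SE, limma adjusted p 0.02782). Mouse 2 lay below all 4 intact mice and the other 4 above them. Among libraries named M the rise was 2.56 ± 0.525 (SE, limma adjusted p 0.02562) and among those named A8 the change was 0.42 ± 0.796 (SE, limma adjusted p 0.7147). The wild-type values were 10.2, 11.2 and 8.70 TPM in intact and 7.78, 7.61, 29.8 and 15.7 TPM in injured discs, high in mice 3 and 4 only (0.36 ± 0.668 SE, limma adjusted p 0.7864). The call was lost when intact mutant mouse 1, 3 or 4 or injured mutant mouse 3, 4 or 5 was left out, with adjusted p up to 0.06935, and with only the mutant groups fitted (limma adjusted p 0.05183). Cox7a2, the common form, averaged 86.1 ± 21.1 TPM in intact (SD, n = 4) and 88.1 ± 23.3 TPM in injured mutants (SD, n = 5), so that it exceeded Cox7a1 5.63-fold to 11.1-fold in intact and 1.21-fold to 7.14-fold in injured mutants.

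The other muscle forms, Cox6a2 and Cox8b, were not called. Cox6a2 was at 0.595, 2.78, 2.61 and 1.82 TPM in intact and 2.28, 1.73, 3.15, 19.7 and 10.1 TPM in injured mutants (1.13 ± 0.651 SE, limma adjusted p 0.1688). Injured mice 3, 4 and 5 lay above all intact mutants, and the change was 1.63 ± 0.843 among libraries named M and 0.29 ± 0.831 among those named A8 (SE, limma adjusted p 0.2133 and 0.8232). Its wild-type levels were 25.5, 5.55 and 5.70 TPM in intact and 4.24, 1.63, 7.09 and 4.52 TPM in injured discs (-1.08 ± 0.742 SE, limma adjusted p 0.4194). Cox8b was at 10.1, 8.74, 9.85 and 5.16 TPM in intact and 3.84, 4.90, 3.40, 12.4 and 7.84 TPM in injured mutants (-0.43 ± 0.487 SE, limma adjusted p 0.498), and at 26.4, 14.0 and 14.0 against 19.6, 10.3, 2.51 and 5.43 TPM in wild-type discs (-1.11 ± 0.555 SE, limma adjusted p 0.2866). Summed skeletal muscle markers (24 genes, of which 23 were tested) ranged from 335.2 to 1335 TPM in intact wild-type, 165.1 to 385.3 TPM in injured wild-type, 239.7 to 277.2 TPM in intact mutant and 48.8 to 1040 TPM in injured mutant discs, and no group had a marker at 0 throughout. The highest libraries for these markers, intact wild-type mouse 1 and injured mutant mouse 4, were also the highest for Cox6a2. In injured mutant mice 1 to 5 the marker sums were 151.6, 48.8, 221.0, 1040 and 461.2 TPM. Mouse 2 was lowest for the markers and for Cox7a1, mouse 5, second in the markers, was highest for Cox7a1, and mouse 3 exceeded mouse 4 in Cox7a1 with fewer markers. Intact wild-type mouse 1, highest of all libraries for the markers at 1335 TPM, had Cox7a1 at only 10.2 TPM. Of the markers, 1 was called higher after injury in mutants, Des (4.35% of those tested, against 13.1% of all tested genes). The part of muscle in these values was not tested further than by a fit with the muscle score as a covariate, in which 23 of the 91 genes were called in mutants, 21 of them also called without it. Cox7a1 kept its call in that fit.

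**Figure D3:**
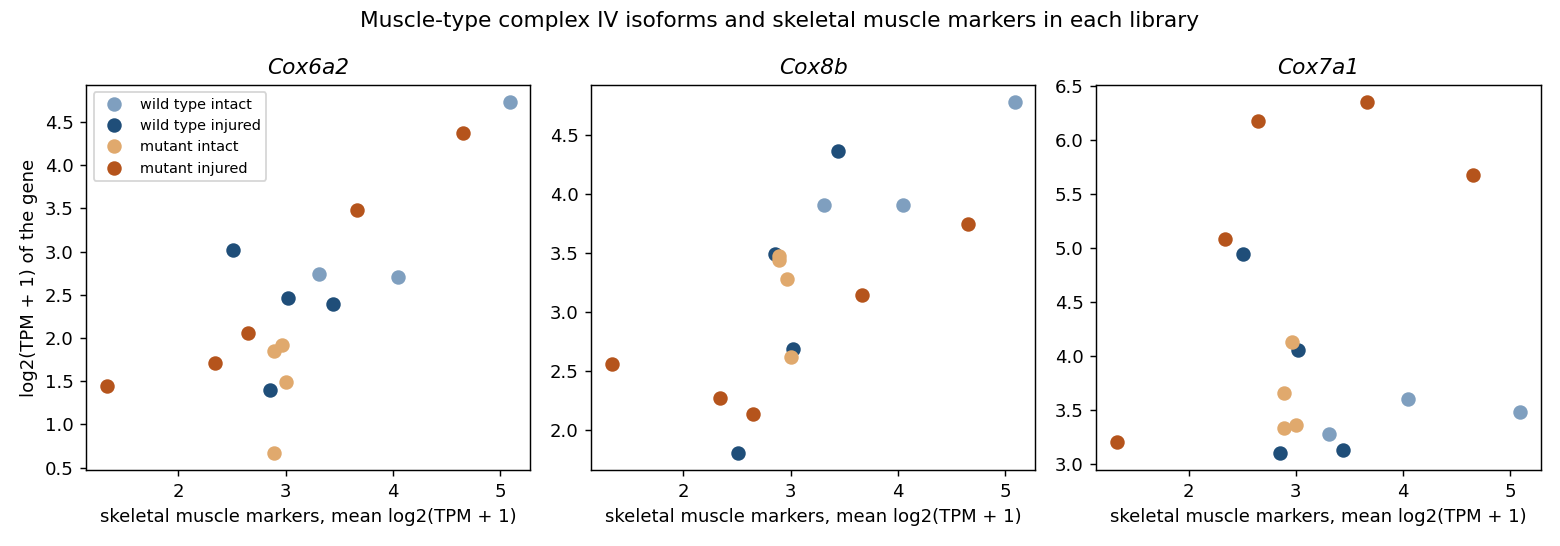
Level of 3 muscle-type isoforms of complex IV against the mean log2(TPM + 1) of skeletal muscle markers, 1 point per library. Cox6a2 is highest in the libraries with the highest muscle markers, intact wild-type mouse 1 and injured mutant mouse 4, and 4 of 5 injured mutant libraries stand high for Cox7a1, while mouse 2, at 8.25 TPM of Cox7a1, has the lowest markers of all 16 libraries.

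Of the remaining alternative forms, Cox7a2l, a supercomplex assembly factor related to Cox7a2, was at 60.7, 50.2, 61.8 and 47.0 TPM in intact and 39.4, 40.8, 35.5, 50.1 and 37.2 TPM in injured mutants, a change of -0.43 ± 0.184 that missed the threshold (SE, limma adjusted p 0.0751). The wild-type change was -0.30 ± 0.209 (SE, limma adjusted p 0.4328). Cox6b2 was at 1.46, 0.851, 1.07 and 3.08 TPM in intact and 2.03, 2.92, 4.14, 1.88 and 1.41 TPM in injured mutants (0.43 ± 0.279 SE, limma adjusted p 0.2763). Wild-type Cox6b2 was at 0.613, 1.14 and 0.700 TPM in intact and 4.04, 1.67, 3.53 and 2.52 TPM in injured discs, with no overlap but at levels of a few TPM (1.09 ± 0.318 SE, limma adjusted p 0.1551). Cox7b2 stayed at 2.31 TPM or below in every library and was listed at 0 in 6 of the 16.

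**Figure D4:**
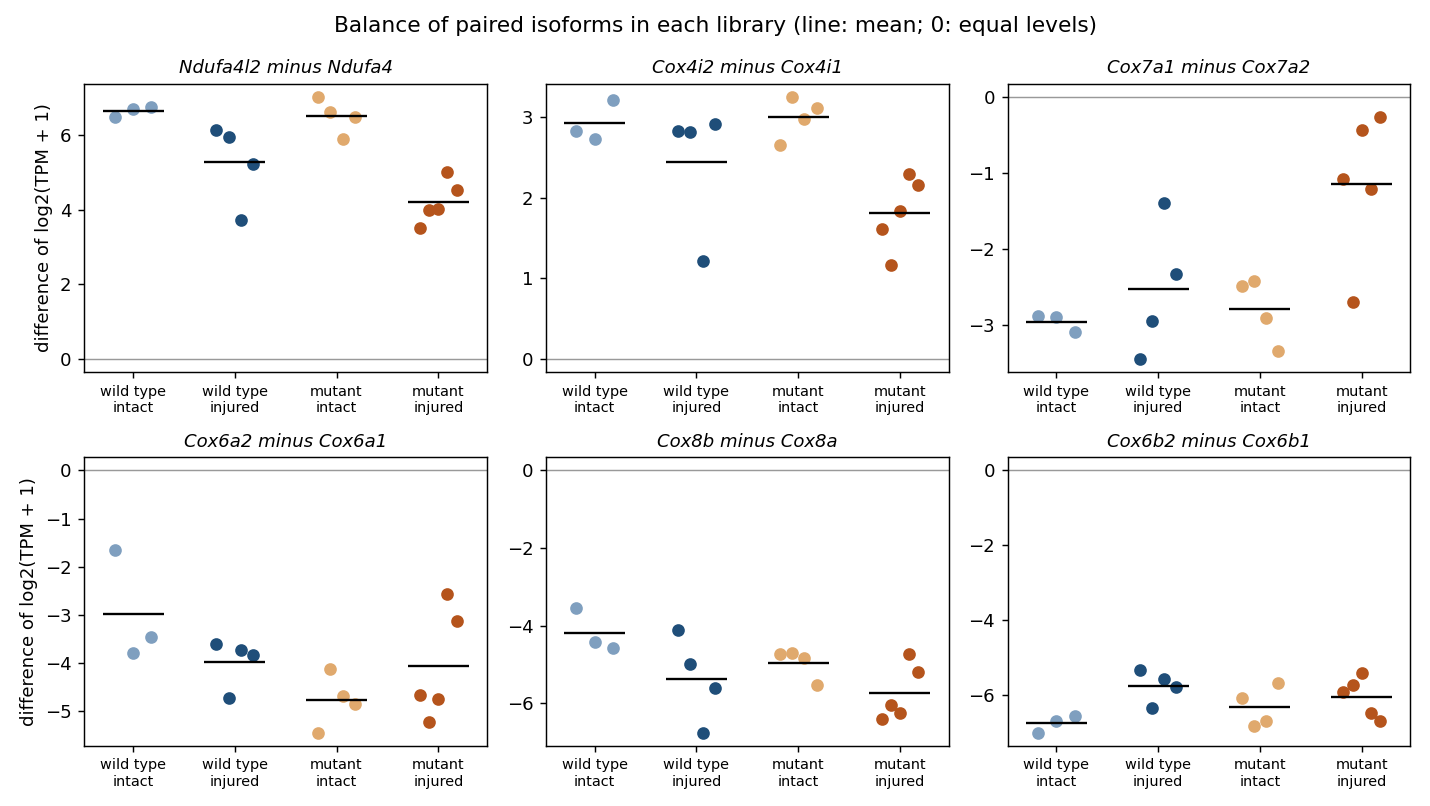
Balance of 6 isoform pairs in each library, as the difference of log2(TPM + 1) of the alternative and the common form, with a line at the group mean. The 2 low-oxygen forms lie above 0 everywhere and lower in injured mutants, and Cox7a1 minus Cox7a2 comes closest to 0 in injured mutant mice 3 and 5.

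In complex II, the succinate dehydrogenase, 3 of 4 subunits rose in mutants (75%, against 13.1% of all tested genes), with a median change of 0.44. Sdhd (ENSMUSG00000000171, chromosome 9, 50596357 to 50603812, minus strand), an anchor in the membrane, was at 68.4, 92.0, 86.9 and 85.3 TPM in intact and 150, 108.5, 119.4, 125.7 and 105.4 TPM in injured mutants, a rise of 0.54 ± 0.111 (SE, limma adjusted p 0.003273) with no overlap. Wild-type discs had it at 92.1, 80.7 and 82.2 TPM in intact and 99.6, 102.0, 119.9 and 105.8 TPM in injured discs, also with no overlap (0.33 ± 0.126 SE, limma adjusted p 0.234). Sdhc, the other membrane anchor, rose by 0.49 ± 0.115 and Sdhb, the iron-sulphur subunit, by 0.39 ± 0.146 (SE, limma adjusted p 0.006903 and 0.04937). The call of Sdhb was close to the threshold and was lost on leaving out any 1 of 11 libraries, with adjusted p up to 0.1522: intact wild-type mice 1 and 2, injured wild-type mice 1 and 4, intact mutant mice 1, 2 and 4 and injured mutant mice 1 to 4. It also did not pass without the filter on low values, or with library naming or the muscle score as a covariate. Sdha, the flavoprotein that binds succinate, was at 84.2, 93.4, 82.8 and 89.7 TPM in intact and 68.4, 76.7, 76.9, 87.8 and 82.9 TPM in injured mutants (-0.16 ± 0.066 SE, limma adjusted p 0.1416), and was not called.

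Complex III held 2 rises among 8 genes (25%, against 13.1% of all tested genes) and a median change of 0.17. Uqcrq, a small subunit, rose by 0.56 ± 0.119 and Uqcrfs1, the Rieske iron-sulphur protein, by 0.49 ± 0.157 (SE, limma adjusted p 0.004073 and 0.0249). The call of Uqcrfs1 was lost without intact mutant mouse 4 or injured mutant mouse 1 or 2, with adjusted p up to 0.08908. The core proteins Uqcrc1 and Uqcrc2 changed by 0.10 and -0.08 and were not called. Uqcrb, the highest of the complex, was at 74.4, 138.2, 131.6 and 116.7 TPM in intact and 146.6, 96.04, 139.4, 151.8 and 138.1 TPM in injured mutants, which overlapped (0.24 ± 0.184 SE, limma adjusted p 0.3141). Uqcrb changed in wild-type discs by 0.27 ± 0.209 (SE, limma adjusted p 0.4898).

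The 36 subunits of complex I, the largest, went both ways in mutants, from -0.57 to 0.65 with a median of -0.03. The 3 rises (8.33%, against 13.1% of all tested genes) and 2 falls (5.56%, against 17.7%) were all in supernumerary subunits. None of the 7 core subunits of the table, which carry the flavin and the iron-sulphur clusters, was called, and their changes ran from -0.08 to 0.25. Ndufb6 (ENSMUSG00000071014, chromosome 4, 40270591 to 40279421, minus strand), a subunit of the membrane arm, was at 20.3, 24.8, 22.9 and 22.1 TPM in intact and 40.1, 42.4, 31.1, 32.5 and 33.8 TPM in injured mutants, a rise of 0.65 ± 0.108 (SE, limma adjusted p 0.001485) with no overlap. The wild-type values were 23.2, 25.3 and 18.3 TPM in intact and 32.1, 33.2, 34.7 and 30.5 TPM in injured discs, also with no overlap and high in all 4 injured mice. Its change there, 0.54 ± 0.123 (SE), had the smallest adjusted p of the 91 genes for injury in the wild type, at 0.1133 by limma. Smim27, whose exons overlap those of Ndufb6 on the opposite strand, lay at 9.21 to 19.6 TPM. Ndufs6, a zinc-binding subunit, rose by 0.49 ± 0.148 and Ndufa9 by 0.36 ± 0.106 (SE, limma adjusted p 0.01907 and 0.02667). The call of Ndufs6 was lost without intact mutant mouse 1, 2 or 4, with adjusted p up to 0.06432. That of Ndufa9 was lost without the same 3 or injured mutant mouse 1, 4 or 5, with adjusted p up to 0.08942, and with only the mutant groups fitted.

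The falls in complex I were those of Ndufa6 and Ndufb11. Ndufa6, a subunit of the matrix arm, was at 99.0, 82.6, 85.0 and 86.3 TPM in intact and 45.3, 62.0, 53.0, 73.3 and 66.1 TPM in injured mutants (-0.57 ± 0.151 SE, limma adjusted p 0.01001), with no overlap. The wild-type change was -0.20 ± 0.172 (SE, limma adjusted p 0.5394). Ndufb11, the highest of the complex and a subunit of the membrane arm, was at 112.7, 122.6, 131.2 and 120.5 TPM in intact and 87.6, 84.2, 91.0, 112.4 and 112.5 TPM in injured mutants (-0.33 ± 0.109 SE, limma adjusted p 0.03707). Its 4 intact and 5 injured values were close to overlapping, the call was lost on leaving out intact mutant mouse 2, 3 or 4 or injured mutant mouse 1, 2 or 3, with adjusted p up to 0.09267, and it did not pass with median-of-ratios scaling (0.08682), with centring by length and GC content (0.1408), without the filter on low values (0.05024) or with only the mutant groups fitted (0.05006). The wild-type change of Ndufb11 was nearly the same, -0.32 ± 0.124 (SE, limma adjusted p 0.2371). None of the 8 Ndufaf assembly factors, which help build complex I, was called, and their changes ran from -0.39 to 0.26.

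In complex V, the ATP synthase, 4 of 15 subunits rose in mutants (26.7%, against 13.1% of all tested genes) and 1 fell (6.67%, against 17.7%). The median change was 0.13. Atp5b, the catalytic beta subunit, was at 103.5, 114.7, 132.5 and 129.7 TPM in intact and 161.7, 158.8, 178.4, 172.0 and 161.5 TPM in injured mutants, a rise of 0.47 ± 0.126 (SE, limma adjusted p 0.01136) with no overlap. Atp5e, the epsilon subunit of the central stalk, was at 19.1, 20.1, 17.3 and 19.2 TPM in intact and 24.8, 29.0, 26.9, 29.7 and 20.4 TPM in injured mutants (0.43 ± 0.117 SE, limma adjusted p 0.01638). Atp5f1 and Atp5o, both of the peripheral stalk, rose by 0.37 and 0.28 (limma adjusted p 0.01589 and 0.02027). The call of Atp5o was lost without intact mutant mouse 2 or 3, with adjusted p up to 0.06077. Atp5a1, the highest of the complex, was at 188.1, 179.5, 186.9 and 196.0 TPM in intact and 199.8, 214.2, 213.8, 214.6 and 206.1 TPM in injured mutants. These values did not overlap, but the change of 0.16 ± 0.077 was not called (SE, limma adjusted p 0.1824). Wild-type discs gave 0.09 ± 0.087 (SE, limma adjusted p 0.6557).

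The subunit that fell was Atp5g2, 1 of 3 genes for the same c subunit of the proton-carrying ring. It was at 86.7, 81.3, 63.3 and 70.1 TPM in intact and 47.4, 56.6, 44.2, 67.0 and 54.3 TPM in injured mutants (-0.48 ± 0.132 SE, limma adjusted p 0.01278). The other c subunit genes, Atp5g1 and Atp5g3, changed by -0.05 and 0.15 and were not called. Atp5s (ENSMUSG00000054894, chromosome 12, 69724950 to 69744660, plus strand) was at 16.1, 18.0, 11.1 and 12.3 TPM in intact and 9.30, 7.73, 4.74, 8.42 and 9.29 TPM in injured mutants (-0.80 ± 0.308 SE, limma adjusted p 0.04891). Its wild-type levels were 17.2, 9.10 and 23.8 TPM in intact and 10.6, 21.4, 8.52 and 10.2 TPM in injured discs, which overlapped (-0.36 ± 0.350 SE, limma adjusted p 0.5811). The call of Atp5s was lost on leaving out any 1 of 11 libraries, with adjusted p up to 0.134: intact wild-type mouse 1, injured wild-type mice 1 and 4, intact mutant mice 1, 2 and 4 and injured mutant mice 1 to 5. It also did not pass with median-of-ratios scaling, quantile normalization, centring by length and GC content, no filter on low values, or library naming or the muscle score as a covariate.

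In the wild type, no gene of the 91 was called after injury by limma, where 0.107% of all tested genes were called higher and 0.00827% lower. Without adjustment, 2482 of the 24188 tested genes were higher and 1673 lower at a limma p under 0.05. Of the 91, 9 were higher and 4 lower at that p, and their median change was -0.01, against 0.01 for all tested genes. In 10 of the 91 (11%) all injured wild-type libraries lay above all intact ones, against 9.22% of all genes, and in 2 (2.2%), Sdha and Cox4i2, below, against 6.34%. The 23 genes called in mutants were picked by their change there, which by itself favours smaller changes in the wild type. Of these 23, 22 had a wild-type change of the same sign, and all 23 a smaller one. The same counts over all genes called in mutants are not given here, so neither is shown to be particular to these genes. The exception in sign was Atp5e, with 24.0, 24.0 and 27.2 TPM in intact and 19.3, 20.7, 27.1 and 25.1 TPM in injured wild-type discs (-0.13 ± 0.133 SE, limma adjusted p 0.6652).

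Whether injury changed these genes differently in the genotypes was tested as the difference of the injury changes. It was called for none of the 91 and for 0% of all tested genes in either direction, so the smaller wild-type changes are not shown to differ from those of mutants. Without adjustment, 533 of the 24188 tested genes had the more positive and 1446 the more negative change in mutants at a limma p under 0.05. Of the 91, 5 had such a p, all with the more positive change in mutants. The smallest adjusted p was 0.5034 by limma, shared by Cox5a (0.70 ± 0.239 SE) and Atp5e (0.56 ± 0.177 SE), followed by Cox6a2 (2.21 ± 0.987 SE, limma adjusted p 0.5623). For Ndufa4l2 the difference was -0.53 ± 0.535 and for Cox4i2 -0.65 ± 0.520 (SE, limma adjusted p 0.8104 and 0.7496).

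Between genotypes in intact discs, none of the 91 was called by limma, where 0.00413% of all tested genes were called higher and 0.0124% lower in mutants. At an unadjusted limma p under 0.05, 405 of the 24188 tested genes were higher and 510 lower in mutants. Of the 91, 1 was higher (Ndufaf8) and 2 were lower (Cox6a2 and Atp5e), and every adjusted p was 1. Cox6a2 averaged 1.95 ± 0.994 TPM in intact mutant (SD, n = 4) and 12.2 ± 11.5 TPM in intact wild-type discs (SD, n = 3), and the groups did not overlap. In the same comparison all 23 tested skeletal muscle markers were on the lower side in mutants, 11 of them at an unadjusted p under 0.05 and none called. Ndufa4l2 and Cox4i2 differed by 0.00 and -0.07 between the genotypes.

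Between genotypes in injured discs, none of the 91 was called, where 0.19% of all tested genes were called higher and 0.728% lower in mutants. With median-of-ratios scaling 47.5% of all called genes were higher. Without adjustment, 1246 of the 24188 tested genes were higher and 3666 lower in mutants at a limma p under 0.05. Of the 91, 6 were higher and 3 lower, and the smallest adjusted p was that of Cox7a1 (1.48 ± 0.586 SE, limma adjusted p 0.1442). Without injured wild-type mouse 3, 2.72% of all tested genes were called higher and 6.6% lower, and of the 91 genes 4 were called: Cox7a1 (1.86 ± 0.601 SE), Ndufb3 (0.71 ± 0.172 SE) and Cox6a1 (0.54 ± 0.143 SE) higher and Cox4i2 (-1.07 ± 0.285 SE) lower in mutants, with limma adjusted p of 0.04677, 0.02832, 0.03167 and 0.02695. Without injured mutant mouse 2, Cox7a1 alone was called (2.01 ± 0.412 SE, limma adjusted p 0.01686), where 1.07% of all genes were called higher and 1.72% lower.

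Other mitochondrial genes were counted by the same fit for injury in mutants, and none of the genes named was called in wild-type discs. In that fit 13.1% of all tested genes were called higher and 17.7% lower in mutants. Of 4 genes of the same complexes or of their electron carrier that the name rule does not catch, 3 rose. They were Cycs, which encodes cytochrome c (1.10 ± 0.293 SE, limma adjusted p 0.009033), Cyc1 of complex III (0.47 ± 0.134 SE, limma adjusted p 0.01525) and Usmg5 of complex V (0.49 ± 0.155 SE, limma adjusted p 0.02347). Of 16 genes of the citric acid cycle, 6 rose (37.5%) and none fell, among them Cs, the citrate synthase, by 0.77 ± 0.133, Dlst by 0.70 ± 0.135 and Dlat by 0.39 ± 0.084 (SE, limma adjusted p 0.001156, 0.002107 and 0.007513). Of 18 regulators of mitochondrial biogenesis 2 rose (11.1%, below the 13.1% of all tested genes), Pprc1, a coactivator, by 1.14 ± 0.200 and Esrra, a nuclear receptor, by 0.58 ± 0.101 (SE, limma adjusted p 0.001102 and 0.003388). Of 36 further assembly factors 4 rose and 4 fell (11.1% each), with Surf1 of complex IV at -0.65, Atpaf1 of complex V at -0.79 and Cox10 of heme A synthesis at 0.64 (limma adjusted p 0.001556, 0.004637 and 0.007282).

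The 13 protein-coding genes of the mitochondrial genome, which encode the other subunits of the same complexes, gave 0 calls in mutants, with 0 at an unadjusted p under 0.05 in either direction and a median change of 0.05. In the wild type their median change was 0.41, with 1 gene at an unadjusted p under 0.05 and none called. Their levels differed widely: in intact mutants mt-Nd1 averaged 9403 TPM, but mt-Co3 2.165 and mt-Atp8 3.837 TPM. Values this low rest on few reads, and the source of the gap was not tested. Of 78 mitochondrial ribosomal protein genes 11 rose (14.1%, near the 13.1% of all tested genes) and 1 fell in mutants, with a median of 0.16. Of 86 cytoplasmic ribosomal protein genes 2 rose and 41 fell (47.7%, against 17.7% of all tested genes), with a median of -0.42. Of 20 glycolysis genes 2 rose (10%, against 13.1% of all tested genes) and 6 fell (30%, against 17.7%), with a median of -0.18. Slc16a3, a lactate exporter, rose by 0.73 ± 0.182, and Pfkm, a phosphofructokinase, and Pdk1, a kinase that holds back pyruvate oxidation, changed by -0.73 ± 0.203 and -0.70 ± 0.196 (SE, limma adjusted p 0.006603, 0.0112 and 0.01125).

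The 2 kinds of mutant library did not give the same number of calls. Among those named A8 (2 injured and 2 intact mice), 9 of the 91 genes were called higher and 4 lower, where 6.65% and 8.16% of all tested genes were. Among those named M (3 injured and 2 intact), 1 was called, Cox7a1, where 1.32% and 1.67% of all genes were. All 23 genes called from all mutant libraries kept their sign in both. They were picked from these same libraries, so this is no separate check. Cox5a rose by 1.38 ± 0.209 among A8 libraries (SE, limma adjusted p 0.0155) and changed by 0.77 ± 0.207 among M libraries (SE, limma adjusted p 0.06669), and Ndufa4 rose by 1.22 ± 0.252 and changed by 0.88 ± 0.268 (SE, limma adjusted p 0.01933 and 0.07634). These subsets hold fewer mice, and the difference between them was not tested. Exons of 28 of the 91 genes overlap those of another tested gene, nearly always on the opposite strand. Beside Ndufa4l2, Cox5a, Ndufb6, Ndufs6, Ndufa9 and Ndufb11, these include Atp5f1 and Atp5o among the 23 called, and how such reads were shared out is not given in the sources used here.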

How the data were processed

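Bulk RNA of tail discs was sequenced in 16 mice. The deposited values are TPM, in a single table whose columns, 1 for each mouse, sum to 1000000. GRCm38 and bcl2fastq 2.20 stand in the submitters' processing notes, while aligner, counting, strand setting and annotation are not given in the sources used here. Per the labels' protocols ribosomal RNA was depleted, although another label reads polyA RNA. Groups came from the sample titles.

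Positions came from GENCODE M21 (GRCm38), joined by identifier (99.3% of 49315 found). TPM values were divided by the worth of 1 read to estimate depth, with 94.1% to 95.0% of low values within 0.05 of a whole number. Counting error was not derived, and errors are between mice.

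The test was limma 3.58.1 in R 4.3.3 on log2(TPM + 1), with a pseudocount of 1, group means of all 16 libraries, eBayes with trend, Benjamini-Hochberg adjustment over the 24188 genes at 1 TPM in at least 3 libraries, and a threshold of 0.05. It was tested on simulated data. Members and gene lists were chosen with earlier results of these data known. Genes given in full were the largest rises and falls among those called for injury in mutants, the highest gene of each complex and the alternative isoforms of complex IV; other members were named freely. In other lists up to 3 were named by smallest adjusted p. Alternatives were another pseudocount, filters, scalings, fits of subsets, covariates, sample weights, a replicate block and leaving out each mouse. Same-numbered mice of different groups were not treated as paired.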

Additional observations from a re-analysis of the deposited data

Results flagged for a closer look

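In 69 groups of 4 or 5 libraries, 6 held 1 library far from the others by Dixon's criterion, and chance flags about 1 in 20 groups. Cox4i2 was lowest in injured wild-type mouse 3, at 201.5 TPM, against 512 to 573.6 TPM in the other 3 mice, and the balance of Cox4i2 minus Cox4i1 was lowest in the same library, at 1.22 on the log2 scale. Uqcrb was lowest in injured mutant mouse 2, at 96.04 TPM. Atp5s was lowest in injured mutant mouse 3, at 4.74 TPM. Cox7b2 was listed at 0 in 3 injured wild-type mice and at 1.55 TPM in mouse 4. The balance of Cox8b minus Cox8a was lowest in intact mutant mouse 4, at -5.54 on the log2 scale.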

How the results depend on the processing

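For injury in mutants the count of 23 called genes stayed between 19 and 28 over the 11 alternatives that kept all mutant libraries and between 16 and 24 on leaving out each mouse (12 to 18 higher, 4 to 8 lower), and no called gene changed sign in any of them. With only mutant libraries named M 1 gene was called (1 higher, 0 lower), and with only those named A8 13 were (9 higher), in fits with fewer mice. The median change for injury in mutants was 0.15 with median-of-ratios scaling, which moved the median of all genes by 0.07. For genotype in injured discs the median was 0.14 with that scaling and also with centring by length and GC content, which moved the median of all genes by 0.11. The median of the interaction was 0.17 with median-of-ratios scaling, and that of genotype in intact discs -0.12 with only A8 libraries. Calls for genotype in injured discs, otherwise 0, were 1 with only M libraries, 1 with sample weights (Cox7a1 in both) and 0 to 4 on leaving out each mouse. The other 3 comparisons gave 0 calls in every alternative. With a replicate block 19 genes were called for injury in mutants (14 higher, 5 lower), and Cox7a1 (adjusted p 0.06318 by limma), Sdhb, Atp5o and Atp5s were not, but same-numbered mice did not deviate together (correlations of -0.217 to 0.078), so the numbers do not pair them. In wild-type discs the balance of Cox6b2 minus Cox6b1 changed by 1.61 with a pseudocount of 0.1. Values of a few TPM, such as those of Cox6b2, Cox7b2, Cox6a2 and Atp5k, rest on few reads.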
